A study of Mus musculus with 13 samples.

Results

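The B-class ephrins and the EphB receptors were followed through the open chromatin of the mouse kidney. The set holds 3 ephrins, Efnb1, Efnb2 and Efnb3, and 5 receptors, Ephb1, Ephb2, Ephb3, Ephb4 and Ephb6. Its peaks are those of the deposited peak list that overlap the gene body or the 2 kb before it, on mm10 with GENCODE M21. They number 158 of 300755 peaks, in 8 of the 32880 genes with any peak in such a window. Nuclei of whole kidneys were profiled by single nuclei ATAC-seq (snATAC-seq) in 2 samples labelled P0, 1 at P21 (3 weeks) and 2 at P56 (8 weeks), and the P21 and P56 samples form the adult group. The labels name no transgene or treatment in any group. The strain of these animals is not given in the sources used here, nor which animals or litters a sample came from, so p-values measure the spread between these samples, which may be technical. Transposase cuts DNA where chromatin is open, and the deposited matrix marks a peak as open wherever a nucleus has 1 or more fragments there.

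Ephrin signalling works by contact between neighbouring cells. B-class ephrins span the membrane, bind EphB receptor tyrosine kinases on the next cell and can signal back into their own cell, so that both cells respond, most often by repulsion, changed adhesion or a sorted boundary. Efnb2 and Ephb4 are the textbook pair that sets arteries apart from veins, and in the kidney the family is known from vessel and glomerulus formation and from the shaping of the medulla.

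The 5 libraries held 3361 to 7129 nuclei and 16980853 to 43794155 open calls each, an open call being 1 nucleus with 1 open peak. Median open peaks per nucleus ran from 3371 to 6737, and 0.714% to 1.22% of the barcodes of the smaller library recurred in another. The 13 named clusters of the deposited annotation are nephron progenitors (NP), podocytes, the convoluted (PCT) and straight (PST) parts of the proximal tubule, the loop of Henle (LOH), the distal convoluted (DCT) and connecting (CNT) tubules, principal (PC) and intercalated (IC) cells, endothelial cells, immune cells, stroma 1 and stroma 2. Of 20 marker genes, 18 had a start-site peak, and averaged over the 5 samples each of these was most open in the cluster it names or, for the 3 stromal markers, in one of the stromal clusters. The connecting tubule marker Trpv5 had none. Adult nephron progenitors were few, with 52, 90 and 53 nuclei, and carried other markers. Counts per 1000000 open calls of the cluster and sample are given as CPM. At P0 the endothelial marker Egfl7 was as open elsewhere, with 18.7 and 20.98 CPM in endothelial cells, 23.4 and 20.8 in LOH and 19.4 and 26.3 in PC. The start-site peak of the progenitor gene Uncx in NP nuclei gave 19.97 and 21.96 in the P0 samples, 4.32 at P21 and 15.2 and 8.14 at P56 CPM, and that of the distal tubule gene Slc12a3 gave 1.25 and 2.75 in the P0 samples, 8.65 at P21 and 48.7 and 56.97 at P56. In LOH nuclei Uncx gave 11.3 and 12.3 in the P0 samples, 0.640 at P21 and 1.41 and 0.685 at P56, and the loop marker Slc12a1 gave 13.2 and 18.3 in the P0 samples, 87.6 at P21 and 60.9 and 89.2 at P56. Principal cell markers moved too, with a summed level of 38.8 and 40.9 at P0 and 127 to 142 in the adult samples. The proximal marker Kap in PST nuclei gave 6.06 and 6.04 in the P0 samples, 41.7 at P21 and 25.4 and 37.7 at P56, and Slc12a3 in DCT nuclei gave 44.8 and 46.7 in the P0 samples, 97.1 at P21 and 85.9 and 89.7 at P56. Stroma 1 nuclei also differed by stage in the tubule markers Slc12a3, with 0.785 and 2.17 in the P0 samples, 44.2 at P21 and 20.2 and 27.95 at P56, and Slc34a1, with 0.262 and 1.24 in the P0 samples, 20.4 at P21 and 3.36 and 20.5 at P56. The summed level of the 3 stromal markers there was 82.1 and 86.98 at P0 and 47.6 to 63.4 in the adult samples. Over the clusters, Slc12a3 was higher in all adult samples than in both P0 samples in 11 of 13, Slc34a1 in 9 and Slc12a1 in 6. The Slc12a3 peak was not confined to DCT. In LOH nuclei it gave 12.03 and 14.5 in the P0 samples, 71.01 at P21 and 79.6 and 107 at P56. In PCT nuclei it gave 29.4 and 32.9 in the P0 samples, 42.9 at P21 and 48.9 and 60.9 at P56. A raised Slc12a3 signal in another cluster therefore does not name the cell type it came from. Slc12a3 gave 4.56 and 10.1 in the P0 samples, 43.5 at P21 and 52.3 and 61.1 at P56 in CNT. It gave 1.05 and 1.55 in the P0 samples, 12.5 at P21 and 4.79 and 17.3 at P56 in stroma 2, and 1.41 and 1.81 in the P0 samples, 9.52 at P21 and 5.26 and 11.8 at P56 in endothelial cells, where Slc12a1 gave 0.469 and 0.362 in the P0 samples, 4.76 at P21 and 3.68 and 4.72 at P56. The part of these shifts in the stage results of any cluster was not tested. A level below, in CPM, is likewise the number of open calls in a gene's window per 1000000 open calls of the same cluster and sample. Clusters were formed from the chromatin of these same nuclei, so levels between clusters are described without a test.

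The members differed in how many peaks they hold. Ephb1 (chr9:101922128-102354693, minus strand) and Ephb2 (chr4:136647539-136835988, minus strand) had 61 and 60 peaks, and Efnb2 (chr8:8617434-8661242, minus strand) had 14. Ephb4 (chr5:137350109-137378669, plus strand) had 8, Efnb1 (chrX:99136130-99148991, plus strand) 6, Ephb3 (chr16:21204755-21223305, plus strand) 4, Efnb3 (chr11:69554092-69560205, minus strand) 3 and Ephb6 (chr6:41605482-41620509, plus strand) 2. Of the 158 peaks, 9 lay over an annotated transcript start, 135 (85.4%) within introns, 9 over UTRs or non-coding exons, 4 over coding exons and 1 upstream. Only 1 peak, in Ephb1, also fell in the window of another protein-coding gene, 9630041A04Rik. Windows of non-coding genes also overlapped those of Efnb2 and Ephb1. Levels compare between genes only per kb of peak, and on that scale the adult means led the members in DCT for Ephb3 (53.5 CPM per kb), in endothelial cells for Ephb4 (36.1) and in podocytes for Efnb1 (26.99).

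**Figure D1:**
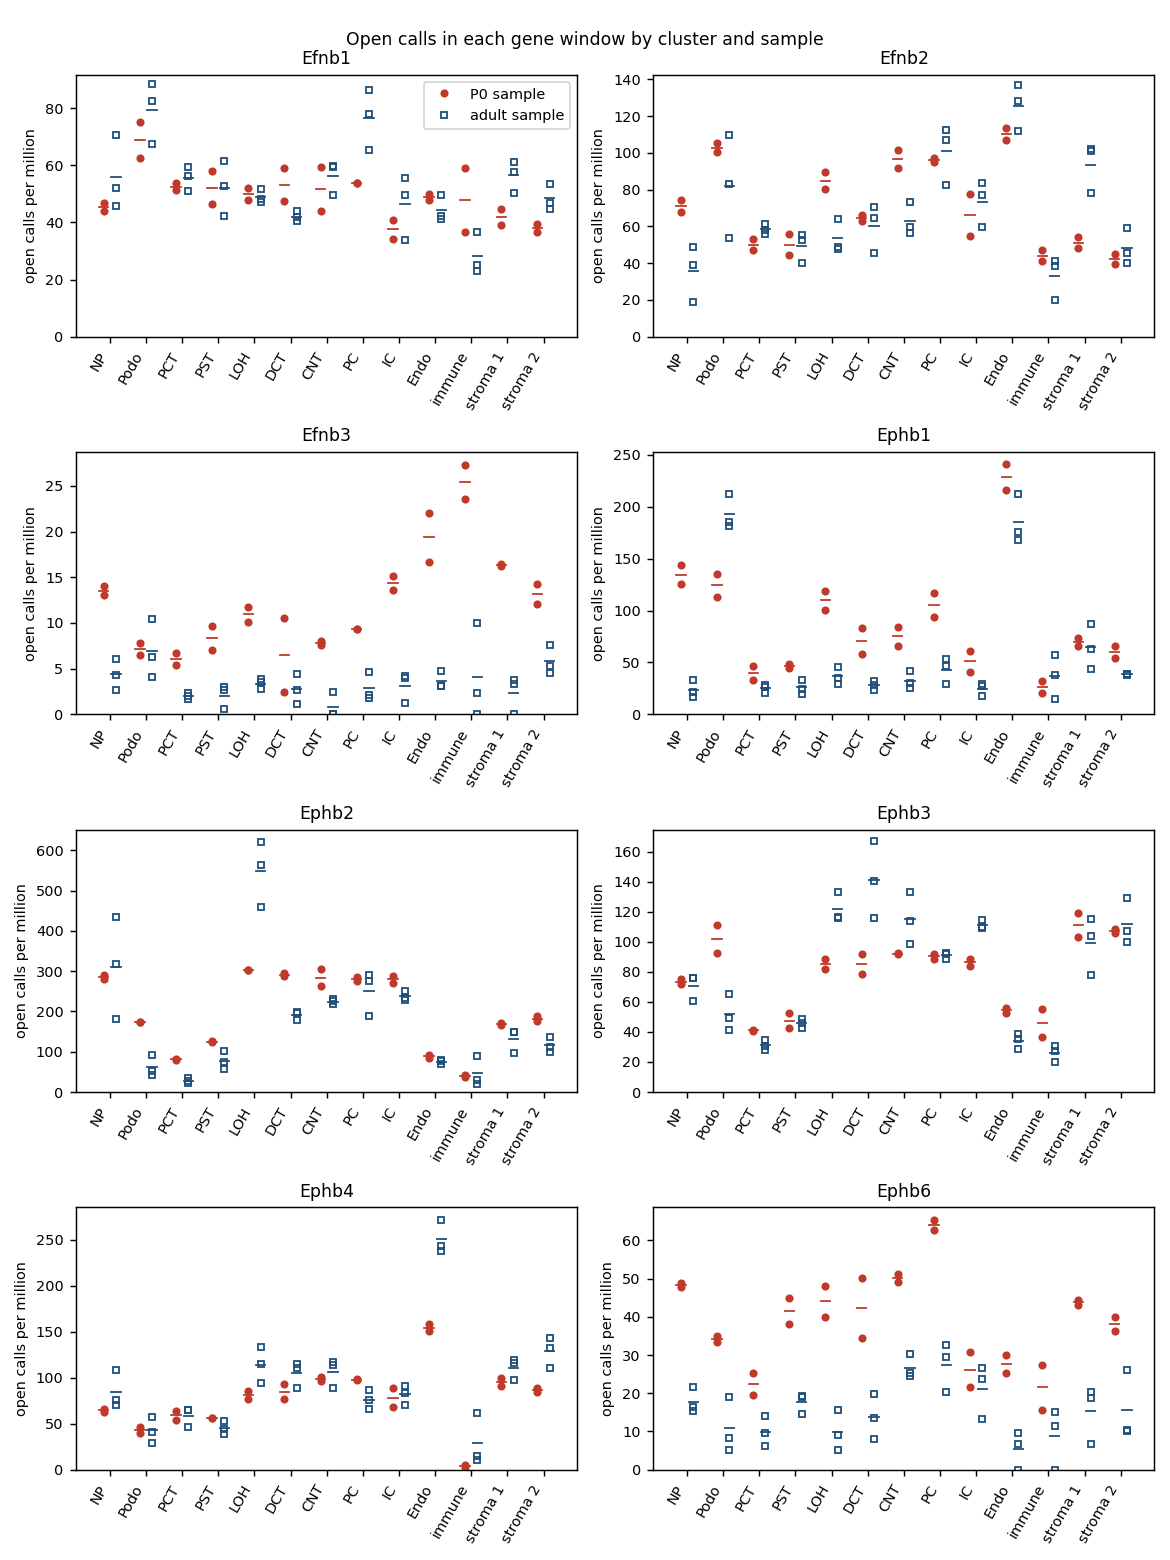
CPM in each gene window (linear y axis from 0) for the 13 clusters (x axis). Filled circles are the 2 P0 samples, open squares the 3 adult samples and short lines the group means. Ephb4 stands highest in endothelial cells at both stages, Ephb2 in adult LOH, and the P0 samples of Ephb6 lie above the adult samples in PC, LOH and endothelial cells.

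P0 and adult samples were compared within each cluster to ask how the chromatin of these genes changes after birth. More member windows were higher at P0 than lower, and Ephb6 (11), Ephb1 (7), Ephb2 (5) and Efnb3 (5) held most of the higher pairs. Of the 104 pairs of a member and a cluster, 90 passed the filter on low counts, and 41 of these passed the test, 33 with higher and 8 with lower levels at P0. The background was 25.1% of all gene and cluster pairs called, and the members' share was 45.6%. Over all pairs 14.2% were higher at P0 and 11.0% lower. The median log2 difference, P0 over adult, was 0.27 over the member pairs and -0.01 over all pairs. Not all members shared the excess, since the median was -0.19 for Efnb1, -0.05 for Efnb2, -0.10 for Ephb4 and 0.006 for Ephb3. All pairs come from the same 5 libraries. Member windows held 2 to 61 peaks, against a median of 3 over all genes, and the part of this in the shares was not tested. The test was edgeR's quasi-likelihood test with Benjamini-Hochberg (BH) adjustment over all genes of a cluster, 2 P0 against 3 adult samples, except that no member passed the filter in immune cells and Efnb3 passed it in 6 clusters. A gene can pass the filter through the samples of 1 stage alone, and a call can then go only 1 way. This held for 7 of the 90 member pairs, all through P0, of which 6 were called. Such values are marked below as filtered in through that stage, and their direction is set by the filter. Of the 83 pairs that either stage carried over the filter, 27 were higher and 8 lower at P0 (42.2%), against 22.3% of all such pairs, 10.8% higher and 11.4% lower. The fit rescales libraries (TMM), and its log2 values can therefore depart from ratios of the levels. In IC, 7 members were tested and none passed, while 0.989% of all genes did; 1 member had an unadjusted p under 0.05 there, and DESeq2 called 0, giving no adjusted p for 5 of the 7. LOH had the most calls, 4 members higher and 3 lower of 8, against a background of 52.1% of genes called, 29.3% higher and 22.8% lower. The share of all genes called in either direction was 39.2% in NP, 10.8% in podocytes, 28.5% in PCT, 12.9% in PST, 5.57% in DCT, 25.0% in CNT, 29.6% in PC, 24.9% in endothelial cells, 30.2% in stroma 1, 37.2% in stroma 2 and 0 in immune cells. The test passed for 19 pairs without P0 sample 1 and for 18 without P0 sample 2. Those fits keep 1 P0 sample, which is assumed to vary like the adult samples, and no pair called with all samples changed direction in them.

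**Figure D2:**
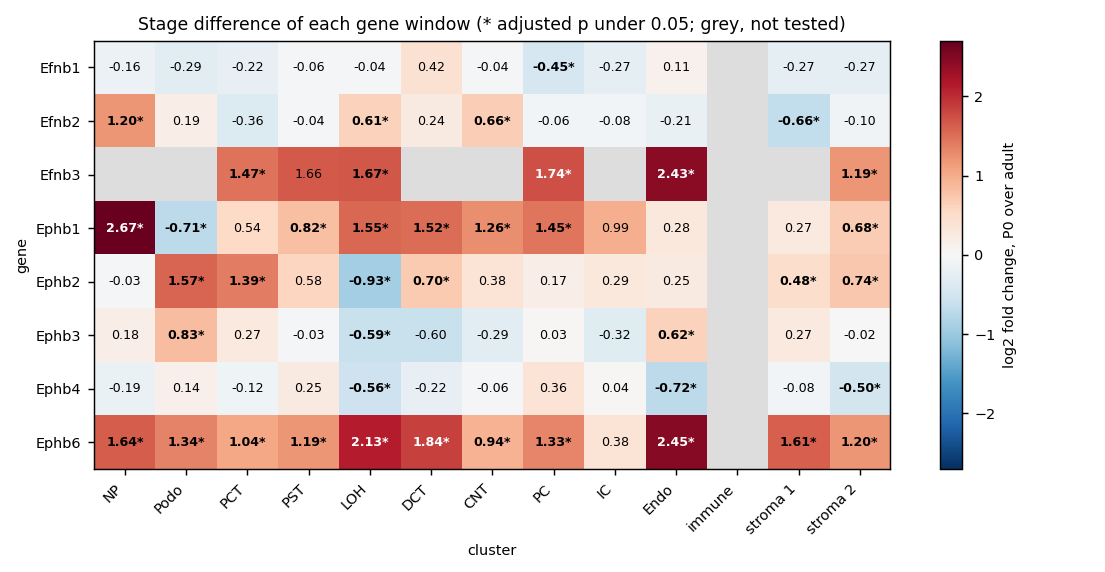
Log2 fold change, P0 over adult, of each gene window (rows) in each cluster (columns), from edgeR. Red is higher at P0, blue higher in adult nuclei, an asterisk marks an adjusted p under 0.05 and grey pairs were not tested. Ephb6 is red in all 12 tested clusters and marked in 11, while Ephb2 and Ephb3 are blue in LOH and red in podocytes.

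Among the ligands, Efnb1, a gene on the X chromosome known for its part in skull and face formation, had the fewest calls. Its level was highest in podocytes at both stages, at 68.97 ± 8.89 (SD, n = 2) at P0 and 79.5 ± 10.8 (SD, n = 3) in adult nuclei. Principal cells came next with 53.7 ± 0.0961 and 76.6 ± 10.7, and in the adult samples the 2 clusters overlapped. In principal cells the level was 53.8 and 53.6 in the P0 samples, 86.5 at P21 and 65.3 and 78.1 at P56. Both P0 samples lay below all adult samples. This was the only pair of Efnb1 past the test (log2 -0.45, SE 0.15, adjusted p = 0.0335), of 12 tested. The principal cell call was lost without P0 sample 1 (log2 -0.46, adjusted p = 0.275), P0 sample 2 (log2 -0.43, 0.296), the P21 sample (log2 -0.41, 0.0915) or P56 sample 2 (log2 -0.43, 0.135). DESeq2 called Efnb1 higher at P0 in 0 and lower in 0 clusters, and gave no call in PC (log2 -0.46, adjusted p = 0.217). The intronic peak 5.3 kb into the gene, at chrX:99141152-99141641, was the most podocyte-weighted of its peaks, counting those open in at least 5% of some cluster. It was open in 6.84% and 6.63% of podocytes in the P0 samples, 14.9% at P21 and 11.5% and 23.1% at P56, so that all adult samples were above both P0 samples (log2 -1.36, SE 0.35, adjusted p = 0.00734, filtered in through the adult samples). The podocyte call of this peak was lost without P0 sample 1 (log2 -1.46, adjusted p = 0.132), P0 sample 2 (log2 -1.06, 0.215) or P56 sample 1 (log2 -1.33, 0.0667). The start-site peak of Efnb1, at chrX:99135793-99136480, was tested in 12 clusters and passed in LOH, where it was open in 13.9% and 16.6% of nuclei in the P0 samples, 12.2% at P21 and 5.95% and 14.8% at P56 (log2 -0.60, SE 0.25, adjusted p = 0.0411). The raw shares there are not scaled for depth. The start-site call was lost without P0 sample 1 (log2 -0.54, adjusted p = 0.292), P0 sample 2 (log2 -0.59, 0.251), the P21 sample (log2 -0.57, 0.0703), P56 sample 2 (log2 -0.41, 0.162) or with DESeq2 (log2 -0.54, 0.168).

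Efnb2, the arterial ligand, was highest in endothelial cells at both stages, and in adult nuclei principal cells overlapped them. With windows restricted to the annotated starts, podocytes led at P0. The endothelial levels were 107 and 114 in the P0 samples, 129 at P21 and 137 and 112 at P56, which overlap, and the stage difference did not pass (log2 -0.21, SE 0.15, adjusted p = 0.322). Podocytes were close behind at P0, at 103 ± 3.69 (SD, n = 2). Outside the endothelium Efnb2 differed in opposite directions. In nephron progenitors its level was 74.4 and 67.9 in the P0 samples, 38.9 at P21 and 48.7 and 18.99 at P56. Both P0 samples exceeded all adult samples (log2 1.20, SE 0.25, adjusted p = 6.24e-05). The adult nuclei labelled progenitors also had the raised Slc12a3 signal given above, and its part in this result was not tested. Efnb2 was also higher at P0 in LOH (log2 0.61, SE 0.17, adjusted p = 0.0117) and CNT (log2 0.66, SE 0.19, adjusted p = 0.0177). In stroma 1 it was lower at P0, with 54.1 and 48.2 in the P0 samples, 102 at P21 and 101 and 78.3 at P56 (log2 -0.66, SE 0.18, adjusted p = 0.00784). The adult stroma 1 samples also had the raised Slc12a3 and Slc34a1 signal and the lower stromal marker sum given above, and their part in this result was not tested. The CNT call was lost without P0 sample 1 (log2 0.56, adjusted p = 0.296), P0 sample 2 (log2 0.72, 0.113), the P21 sample (log2 0.63, 0.0570) or P56 sample 2 (log2 0.52, 0.0977). The LOH call was lost without P0 sample 1 (log2 0.51, adjusted p = 0.168) or P0 sample 2 (log2 0.71, 0.0520). The stroma 1 call was lost without P0 sample 1 (log2 -0.78, adjusted p = 0.0687) or P0 sample 2 (log2 -0.57, 0.205). DESeq2 called Efnb2 higher at P0 in 2 and lower in 1 clusters, and gave no call in CNT (log2 0.68, adjusted p = 0.125).

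The start-site peak of Efnb2, at chr8:8660931-8662302, was open in 37.5% and 36.7% of endothelial nuclei in the P0 samples, 23.98% at P21 and 17.3% and 20.2% at P56. These shares are not scaled for depth, and P0 endothelial nuclei held more open peaks. Thinned to 1000 open peaks a nucleus, the shares were 5.63% and 5.64% in the P0 samples, 9.14% at P21 and 6.75% and 7.64% at P56, so the order of the stages turned and all adult samples were above both P0 samples. The fit, which scales for depth, gave no call (log2 -0.48, SE 0.21, adjusted p = 0.0868). Elsewhere this start-site peak was higher at P0 in NP, whose adult samples had the raised Slc12a3 signal (log2 0.71, SE 0.27, adjusted p = 0.0242). It was lower in PCT (log2 -0.66, SE 0.20, adjusted p = 0.0222) and stroma 1 (log2 -0.59, SE 0.20, adjusted p = 0.0147). The PCT and stroma 1 calls were lost without either P0 sample or the P21 sample. The NP and PCT calls were lost without P56 sample 2, and the stroma 1 call with DESeq2. A peak 37 kb into the gene, at chr8:8623584-8624116, stood out by cluster. It was open in 15.7% and 16.02% of endothelial nuclei in the P0 samples, 4.98% at P21 and 7.02% and 5.10% at P56, 18.9 times the mean of the other 12 clusters over both stages by CPM. Its stage difference in the fit was small (log2 0.03, SE 0.25, adjusted p = 0.942). In LOH 4 Efnb2 peaks were tested and 3 were called higher at P0, but 2 of these were filtered in through P0, so nothing is read from that count (29.9% of all LOH peaks were higher and 24.5% lower). The peak 21 kb into the gene, chosen after its values were seen, was open in 7.56% and 5.52% of LOH nuclei in the P0 samples, 0.508% at P21 and 0% and 0% at P56 (log2 4.92, SE 0.70, adjusted p = 2.20e-06, filtered in through P0), the adult values resting on 2 open nuclei.

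Efnb3, best known from midline axon guidance, had few open calls. Its mean adult level was at most 6.94 CPM in any cluster, and several adult sums held 0 to 3 calls. It passed the filter in 6 clusters and was called higher at P0 in 5 of them. PC, endothelial cells and PST passed through the P0 samples alone, with adult sums of 3, 6 and 4 calls in endothelial cells and 1, 4 and 3 in PC, so the count of directions is set in part by the filter. LOH, PCT and stroma 2, the 3 where either stage passed, were all higher at P0. In endothelial cells its level was 16.6 and 22.1 in the P0 samples, 4.76 at P21 and 3.16 and 3.15 at P56. Both P0 samples stood above all adult samples (log2 2.43, SE 0.38, adjusted p = 9.94e-04, filtered in through P0). LOH showed 10.1 and 11.7 in the P0 samples, 3.84 at P21 and 3.52 and 2.74 at P56, again without overlap (log2 1.67, SE 0.34, adjusted p = 0.00211). PCT, PC and stroma 2 gave log2 values of 1.47, 1.74 and 1.19, and PST 1.66 with an adjusted p of 0.0778. The highest P0 level was in immune cells, from 9 and 6 calls, too few for the test. The PC call was lost without P0 sample 1 (log2 1.72, adjusted p = 0.241), P0 sample 2 (log2 1.74, 0.219) or P56 sample 2 (log2 1.41, 0.127). The PCT call was lost without P0 sample 1 (log2 1.28, adjusted p = 0.184) or P0 sample 2 (log2 1.60, 0.0783). The stroma 2 call was lost without P0 sample 1 (log2 1.30, adjusted p = 0.108) or P0 sample 2 (log2 1.101, 0.189). DESeq2 called Efnb3 higher at P0 in 4 and lower in 0 clusters, and gave no call in PC (log2 1.74, adjusted p = 0.173). Its start-site peak (chr11:69559671-69560793) was open in 6.30% and 7.98% of LOH nuclei in the P0 samples, 1.02% at P21 and 0.576% and 0.994% at P56 (log2 1.96, SE 0.38, adjusted p = 1.35e-04, filtered in through P0). A peak over the UTR, at chr11:69554864-69555278, was most open in immune nuclei relative to the other clusters, at 7.07% and 10.5% in the P0 samples, 0% at P21 and 2.38% and 0.990% at P56, which rest on 7 and 6 open nuclei at P0 and 3 in the adult samples. It passed the filter in endothelial cells alone, where it was open in 7.43% and 6.80% of nuclei in the P0 samples, 0.452% at P21 and 0.140% and 0% at P56, the adult values resting on 2 open nuclei (log2 4.09, SE 0.68, adjusted p = 1.02e-04, filtered in through P0).

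Among the receptors, Ephb1 had the most peaks. At P0 endothelial cells led with 229 ± 17.8 (SD, n = 2), 1.697 times the next cluster, nephron progenitors. Over all genes that ratio of first to second cluster had a median of 1.18 at P0, and 13.8% of genes had a ratio at least as large. In adult nuclei podocytes stood at 193 ± 16.96 (SD, n = 3) and endothelial cells at 185 ± 23.5, with values that overlapped across samples. Podocytes led within each of the 3 samples, and stroma 1 came next at 64.98 ± 21.7. The stage test called 8 of 12 clusters. Nuclei labelled nephron progenitors had 126 and 144 in the P0 samples, 21.6 at P21 and 33.5 and 16.3 at P56, the largest difference of any member (log2 2.67, SE 0.26, adjusted p = 2.04e-13, filtered in through P0). The adult nuclei of that label also had the raised Slc12a3 signal given above, and its part in this result was not tested. In LOH the Ephb1 level was 119 and 101 in the P0 samples, 46.1 at P21 and 34.9 and 29.2 at P56, which also separates the stages (log2 1.55, SE 0.19, adjusted p = 1.13e-04). DCT, PC, CNT, PST and stroma 2 were higher at P0 by 1.52, 1.45, 1.26, 0.82 and 0.68 (log2). Podocytes went the other way, with 136 and 113 in the P0 samples, 182 at P21 and 213 and 186 at P56 (log2 -0.71, SE 0.15, adjusted p = 0.00294). The PST call was lost without P0 sample 1 (log2 0.82, adjusted p = 0.266), P0 sample 2 (log2 0.75, 0.304) or P56 sample 1 (log2 0.69, 0.0624). The podocyte call was lost without P0 sample 2 (log2 -0.51, adjusted p = 0.249). The DCT call was lost without P0 sample 1 (log2 1.69, adjusted p = 0.0619) or P0 sample 2 (log2 1.13, 0.268). The stroma 2 call was lost without P0 sample 2 (log2 0.57, adjusted p = 0.170). DESeq2 called Ephb1 higher at P0 in 6 and lower in 0 clusters, and gave no call in podocytes (log2 -0.67, adjusted p = 0.0864) and PST (log2 0.81, 0.100).

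The start-site peak of Ephb1, at chr9:102354012-102355237, was open in 36.3% and 28.6% of endothelial nuclei in the P0 samples, 15.4% at P21 and 12.8% and 16.01% at P56, and the fit, which scales for depth, gave no call there (log2 -0.21, SE 0.21, adjusted p = 0.484). It was higher at P0 in LOH (log2 1.02, SE 0.25, adjusted p = 0.00138) and stroma 2 (log2 0.69, SE 0.25, adjusted p = 0.0251), of 9 clusters tested. The stroma 2 call of this peak was lost without P0 sample 1 (log2 0.90, adjusted p = 0.105), P0 sample 2 (log2 0.60, 0.343), the P21 sample (log2 0.63, 0.0714), P56 sample 1 (log2 0.54, 0.113) or with DESeq2 (log2 0.73, 0.111). Single Ephb1 peaks were open in different cells. In podocytes, a peak 102 kb into the gene, at chr9:102252889-102253203, was open in 1.95% and 1.93% of nuclei in the P0 samples, 8.51% at P21 and 8.92% and 10.3% at P56. All 3 adult samples were above both P0 samples, but the counts of 4 to 14 nuclei a sample were too low for the test. By CPM it was 70.2 times more open in podocytes than in the mean of the other clusters. In endothelial cells a pair of peaks, chosen after their values were seen, lay 48 and 44 kb into the gene. The first, at chr9:102306746-102307591, was open in 34.3% and 31.1% of endothelial nuclei in the P0 samples, 12.2% at P21 and 13.6% and 9.74% at P56. The second, at chr9:102310516-102311003, was open in 17.9% and 16.3% in the P0 samples, 3.62% at P21 and 7.72% and 4.64% at P56. Both had higher raw shares at P0, where nuclei were deeper, and neither stage difference passed the test (log2 0.07 and 0.16, adjusted p = 0.827 and 0.670, edgeR). A peak 105 kb into the gene was higher at P0 in the 3 clusters where it passed the filter, PCT, LOH and PC. It did so through the P0 samples in each, so nothing is read from that count. In LOH it was open in 8.66% and 8.44% of nuclei in the P0 samples, 0.761% at P21 and 0.288% and 0.331% at P56, 3 open nuclei in each adult sample (log2 3.27, SE 0.44, adjusted p = 1.20e-06, filtered in through P0). The central 300 bases of the podocyte peak and of the second endothelial peak are given as examples of Ephb1 peaks weighted to 1 cell type. They were read from the plus strand of GRCm38 (mm10), and capitals mark a match to GCCNNNGGC, the letters bound by AP-2 factors, searched on both strands. The podocyte window holds 1 match and the endothelial window no match.
Ephb1 podocyte peak, chr9:102252896-102253195: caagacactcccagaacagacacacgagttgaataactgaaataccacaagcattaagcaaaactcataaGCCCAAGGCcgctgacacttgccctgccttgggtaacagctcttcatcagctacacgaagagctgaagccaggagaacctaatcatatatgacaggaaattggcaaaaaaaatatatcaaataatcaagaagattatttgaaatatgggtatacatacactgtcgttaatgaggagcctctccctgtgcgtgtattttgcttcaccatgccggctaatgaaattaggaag
Ephb1 endothelial peak, chr9:102310609-102310908: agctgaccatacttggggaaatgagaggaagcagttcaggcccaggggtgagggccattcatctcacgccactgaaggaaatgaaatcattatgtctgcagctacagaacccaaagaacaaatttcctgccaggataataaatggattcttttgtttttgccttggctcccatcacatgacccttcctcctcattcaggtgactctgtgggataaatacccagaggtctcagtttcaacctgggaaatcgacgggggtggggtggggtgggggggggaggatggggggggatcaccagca

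**Figure D3:**
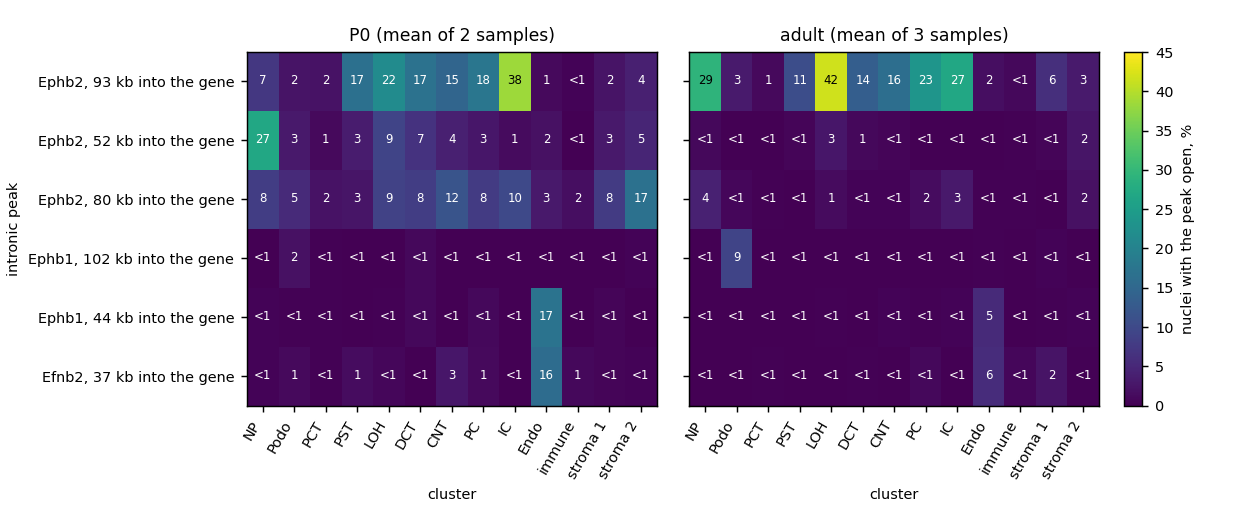
Percent of nuclei (colour and rounded figures in the cells) with each of 6 intronic peaks open, by cluster (x axis), as the mean of 2 P0 samples (left) and 3 adult samples (right), not scaled for depth. The Ephb1 and Efnb2 peaks of the lower 3 rows pass 5% in podocytes or endothelial cells alone, and the 3 Ephb2 peaks are open in different clusters.

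Ephb2 is a receptor known from intestinal and neural patterning. Loop of Henle led at both stages. At P0 its level of 303 ± 0.293 (SD, n = 2) was close to DCT at 291 ± 5.38, NP at 285 ± 6.67, CNT at 284 ± 29.5, PC at 280.5 ± 6.97 and IC at 279 ± 13.8, and it led in 1 of the 2 samples. In adult nuclei it reached 547 ± 82.5 (SD, n = 3), 1.76 times the next cluster, against a median of 1.19 over all genes, of which 16.9% had a ratio at least as large. The stages separated in LOH, with 303 and 304 in the P0 samples, 458 at P21 and 563 and 621 at P56, and the level was lower at P0 (log2 -0.93, SE 0.15, adjusted p = 4.47e-04). Another 5 clusters passed with higher levels at P0. In podocytes it was 175 and 174 in the P0 samples, 51.9 at P21 and 42.1 and 90.7 at P56. Both P0 samples stood above all adult samples (log2 1.57, SE 0.20, adjusted p = 2.68e-05). PCT had 81.4 and 80.1 in the P0 samples, 33.6 at P21 and 28.1 and 23.1 at P56 (log2 1.39, SE 0.16, adjusted p = 5.57e-04). Stroma 2, DCT and stroma 1 were higher at P0 by 0.74, 0.70 and 0.48 (log2). The DCT call was lost without P0 sample 1 (log2 0.67, adjusted p = 0.216), P0 sample 2 (log2 0.61, 0.271) or P56 sample 2 (log2 0.61, 0.103). The stroma 1 call was lost without P0 sample 1 (log2 0.47, adjusted p = 0.280), P0 sample 2 (log2 0.56, 0.157), the P21 sample (log2 0.50, 0.0578), P56 sample 1 (log2 0.31, 0.114) or P56 sample 2 (log2 0.57, 0.108). DESeq2 called Ephb2 higher at P0 in 4 and lower in 1 clusters, and gave no call in stroma 1 (log2 0.50, adjusted p = 0.0908).

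Single peaks of Ephb2 differed in both directions within the same cluster. In LOH 39 of its 60 peaks were tested, 22 were lower at P0 and 4 higher, where 24.5% of all tested LOH peaks were lower and 29.9% higher. Of the 22, 11 were filtered in through the adult samples. Among the peaks that either stage carried over the filter, 11 were lower, 2 higher and 10 not called. Over all peaks and clusters, 14.4% of such pairs were lower and 7.93% higher, and their share within LOH alone is not given. Over the members, 266 pairs of a peak and a cluster were tested and 112 passed (42.1%), against 34.0% of all such pairs (18.0% higher and 16% lower, members 70 and 42); 56 passed without P0 sample 1 and 54 without P0 sample 2. The filter was passed through P0 alone by 64 of the 266 and through the adult samples alone by 44. Of the 154 that either stage carried over, 19 were higher and 24 lower (27.9%), against 22.4% of all such pairs. The lower peaks spread from 1.5 to 157 kb into the gene. Its start-site peak, at chr4:136835224-136836895, did not pass in LOH (log2 -0.34, SE 0.23, adjusted p = 0.222). That peak was called higher at P0 in DCT (log2 1.58, SE 0.45, adjusted p = 0.0458), PST (log2 1.54, SE 0.45, adjusted p = 0.0342) and endothelial cells (log2 1.18, SE 0.44, adjusted p = 0.0422), each filtered in through P0. These calls were lost without either P0 sample, and those in DCT and endothelial cells also with DESeq2 (adjusted p = 0.123 and 0.246). In PCT, 7 of 11 tested peaks were higher at P0, against 33.9% of all PCT peaks called in either direction and 17.6% higher, but 5 of the 7 were filtered in through P0. The most open peak in adult LOH, chosen after its values were seen, lay 93 kb into the gene at chr4:136742618-136743348. It was open in 20.5% and 22.9% of LOH nuclei in the P0 samples, 39.8% at P21 and 28.5% and 56.7% at P56, with all adult samples above both P0 samples (log2 -2.04, SE 0.24, adjusted p = 1.26e-07). It was also lower at P0 in nephron progenitors, at 6.01% and 8.46% in the P0 samples, 17.3% at P21 and 23.3% and 47.2% at P56 (log2 -2.21, SE 0.28, adjusted p = 9.42e-14, filtered in through the adult samples). The adult progenitor samples also had the raised Slc12a3 signal given above. A second peak, 52 kb into the gene at chr4:136783702-136784467 and also chosen after its values were seen, went the other way in progenitors. It was open in 23.4% and 30.5% of nuclei in the P0 samples, 0% at P21 and 1.11% and 1.89% at P56, that is 242 and 307 nuclei at P0 and 0, 1 and 1 in the adult samples (log2 4.44, SE 0.55, adjusted p = 1.15e-14, filtered in through P0). The 0 of 52 nuclei at P21 allows a share of up to 5.77%. The peak called in most clusters lay 80 kb into the gene at chr4:136755285-136755994 and was higher at P0 in PCT, LOH, CNT, PC and stroma 2, the 5 where it passed the filter. Adult samples held at most 13 open nuclei in any of these, so it passed through the P0 samples in all but LOH and nothing is read from that count. In stroma 2 it was open in 16.3% and 17.4% of nuclei in the P0 samples, 2.91% at P21 and 1.31% and 2.03% at P56, the adult values resting on 6, 7 and 7 open nuclei (log2 2.23, SE 0.30, adjusted p = 2.42e-06, filtered in through P0). In CNT it was open in 9.63% and 13.9% of nuclei in the P0 samples, 0% at P21 and 0.340% and 0.752% at P56, where the adult values rest on 3 open nuclei (log2 4.07, SE 0.71, adjusted p = 2.72e-04, filtered in through P0). The CNT call of this peak was lost without P0 sample 2 (log2 4.04, adjusted p = 0.0628). The peak most weighted to 1 cluster among those open in at least 5% of some cluster, 135 kb into the gene at chr4:136700313-136700721, was open in 13.3% and 10.7% of PST nuclei in the P0 samples, 4.51% at P21 and 2.28% and 10.4% at P56, with no call there (log2 0.93, SE 0.49, adjusted p = 0.228). In PCT it was higher at P0, at 5.67% and 5.39% in the P0 samples, 0.645% at P21 and 0.366% and 0.131% at P56 (log2 3.501, SE 0.52, adjusted p = 3.51e-04, filtered in through P0).

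**Figure D4:**
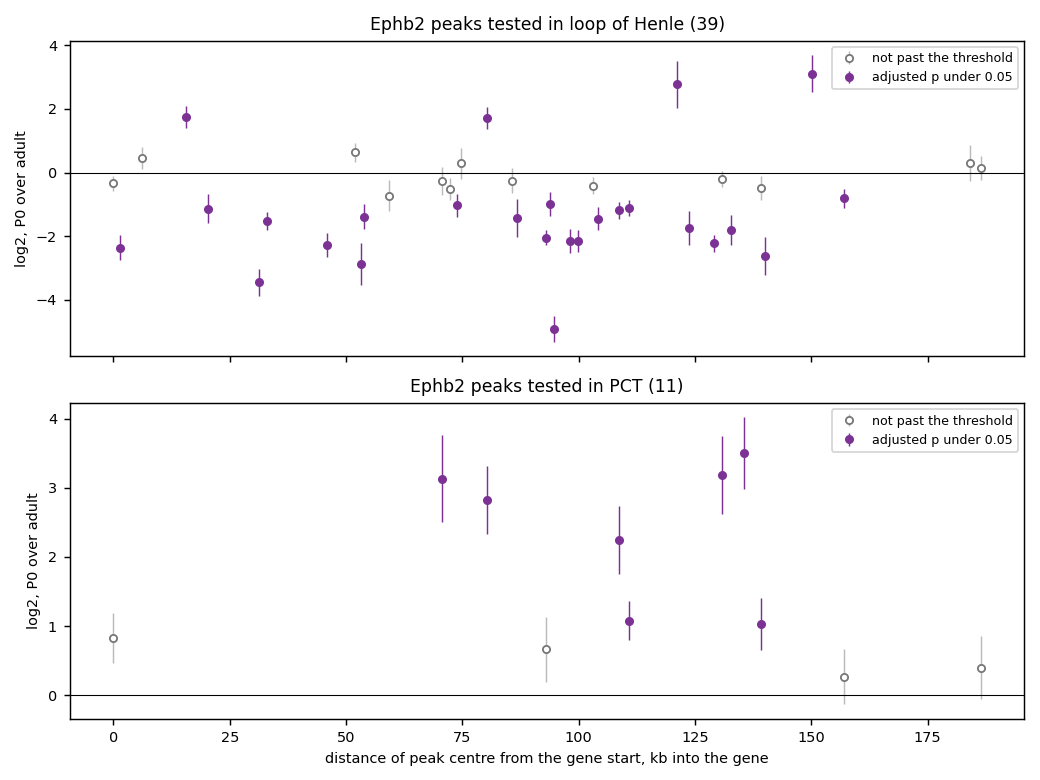
Log2 fold change, P0 over adult, of each tested Ephb2 peak (y axis, bars are SE) against the distance of its centre from the gene start (x axis, kb into the gene), in LOH (upper) and PCT (lower). Filled points have an adjusted p under 0.05. In LOH 22 filled points lie below 0 and 4 above it, and in PCT the 7 filled points lie above 0.

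These 3 peaks of Ephb2 are printed, as the central 300 bases on the plus strand of GRCm38, because the intronic peaks of this gene differed in the cells and stages where they were open. Capitals mark a match to TCAAGGTCA, the letters bound by ERR nuclear receptors, or its reverse complement, and to GCCNNNGGC (AP-2). The LOH window holds 1 ERR match, found in 0.854% of the 300693 peak windows searched and in no other member peak of the 158. The window called in most clusters holds 1 AP-2 match, found in 8.97% of all windows and in 13.3% of member windows. The progenitor window holds no match to the 8 motifs searched. Its GC content was 62%, against 53.3% in the LOH window and 64% in the third. A match is a description of letters and not a measured site.
Ephb2 LOH peak, chr4:136742833-136743132: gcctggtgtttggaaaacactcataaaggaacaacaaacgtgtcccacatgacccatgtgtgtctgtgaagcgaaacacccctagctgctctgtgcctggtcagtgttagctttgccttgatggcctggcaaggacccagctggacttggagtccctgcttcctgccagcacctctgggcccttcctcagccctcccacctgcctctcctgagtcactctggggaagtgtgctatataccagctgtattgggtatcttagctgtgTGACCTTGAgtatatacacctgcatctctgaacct
Ephb2 progenitor peak, chr4:136783934-136784233: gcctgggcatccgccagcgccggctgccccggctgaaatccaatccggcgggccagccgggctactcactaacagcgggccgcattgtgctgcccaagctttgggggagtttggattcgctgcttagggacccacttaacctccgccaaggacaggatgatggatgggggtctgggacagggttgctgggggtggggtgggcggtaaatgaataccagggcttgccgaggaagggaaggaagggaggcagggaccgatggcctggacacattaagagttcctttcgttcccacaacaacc
Ephb2 peak called in most clusters, chr4:136755489-136755788: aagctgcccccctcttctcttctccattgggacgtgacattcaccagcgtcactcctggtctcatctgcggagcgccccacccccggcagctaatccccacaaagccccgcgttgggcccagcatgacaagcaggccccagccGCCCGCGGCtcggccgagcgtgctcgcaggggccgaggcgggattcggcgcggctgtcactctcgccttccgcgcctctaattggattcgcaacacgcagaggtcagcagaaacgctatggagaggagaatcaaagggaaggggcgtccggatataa

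Ephb3, which shares ligands with Ephb2, was lowest in PCT at P0 and in immune cells among adult nuclei, and highest in stroma 1 at P0 (111 ± 11.1, SD, n = 2) and in DCT among adult nuclei (141 ± 25.8, SD, n = 3). Neither lead exceeded the spread, since the next cluster overlapped. Its level in podocytes was 111 and 92.7 in the P0 samples, 41.5 at P21 and 65.3 and 49.5 at P56, higher at P0 (log2 0.83, SE 0.22, adjusted p = 0.0140). In endothelial cells it was 56.2 and 52.4 in the P0 samples, 28.6 at P21 and 35.2 and 38.6 at P56 (log2 0.62, SE 0.17, adjusted p = 0.0189). LOH again showed the opposite order, with 81.6 and 88.7 in the P0 samples, 116 at P21 and 116 and 133 at P56 (log2 -0.59, SE 0.14, adjusted p = 0.00409). DCT had a difference of the same size with more spread (log2 -0.60, SE 0.20, adjusted p = 0.101). The podocyte call was lost without P0 sample 1 (log2 0.72, adjusted p = 0.192), the P21 sample (log2 0.68, 0.0946) or P56 sample 2 (log2 0.73, 0.0525). The endothelial call was lost without P0 sample 1 (log2 0.56, adjusted p = 0.281) or P0 sample 2 (log2 0.70, 0.120). The LOH call was lost without P0 sample 1 (log2 -0.55, adjusted p = 0.0868) or P0 sample 2 (log2 -0.63, 0.0515). DESeq2 called Ephb3 higher at P0 in 0 and lower in 1 clusters, and gave no call in podocytes (log2 0.89, adjusted p = 0.183) and endothelial cells (log2 0.60, 0.139). Ephb3 has a pair of start-site peaks. The first, at chr16:21204451-21205306, was open in 34.9% and 40.6% of podocytes in the P0 samples, 17.02% at P21 and 13.4% and 23.1% at P56 and passed there (log2 0.97, SE 0.21, adjusted p = 0.00137). It was lower at P0 in LOH (log2 -0.77, SE 0.22, adjusted p = 0.00531), a call lost without P0 sample 1 (log2 -0.68) or P0 sample 2 (log2 -0.79). The second, 6.4 kb downstream at chr16:21210672-21211573, was most open in stroma 2, at 33.2% and 36.2% in the P0 samples, 12.1% at P21 and 14.2% and 16.3% at P56. These shares are not scaled for depth, and the fit gave no call there (log2 0.32, SE 0.18, adjusted p = 0.137). Of 10 clusters tested it was lower at P0 in LOH (log2 -0.64, SE 0.25, adjusted p = 0.0301) and higher in endothelial cells (log2 1.30, SE 0.44, adjusted p = 0.0247, filtered in through P0) and stroma 1 (log2 0.71, SE 0.25, adjusted p = 0.0189). The LOH call of the second peak was lost without P0 sample 1 (log2 -0.51, adjusted p = 0.310), P0 sample 2 (log2 -0.69, 0.178), P56 sample 2 (log2 -0.49, 0.0977) or with DESeq2 (log2 -0.58, 0.149). The endothelial call of this peak was lost without P0 sample 1 (log2 1.18, adjusted p = 0.383), P0 sample 2 (log2 1.48, 0.141), the P21 sample (log2 1.23, 0.0547), P56 sample 2 (log2 1.03, 0.106) or with DESeq2 (log2 1.35, 0.217). The stroma 1 call of this peak was lost without P0 sample 2 (log2 0.65, adjusted p = 0.117), the P21 sample (log2 0.49, 0.202), P56 sample 1 (log2 0.48, 0.151) or with DESeq2 (log2 0.81, 0.0579). An intronic peak 15 kb into the gene, at chr16:21219599-21220123, was, by the same limit of 5%, the one most weighted to 1 cluster, open in endothelial cells at 7.94% and 6.55% in the P0 samples, 0.905% at P21 and 3.51% and 2.32% at P56, and the fit gave no call (log2 0.09, SE 0.36, adjusted p = 0.875).

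Ephb4, the venous receptor for Efnb2, was highest in endothelial cells, 1.56 times the next cluster at P0 and 1.95 times in adult nuclei. Of all genes, 17.9% at P0 and 13.5% in adult nuclei had a ratio at least as large. The endothelial levels were 150.2 and 158 in the P0 samples, 243 at P21 and 237 and 271 at P56. All adult samples exceeded both P0 samples (log2 -0.72, SE 0.13, adjusted p = 0.00233). Ephb4 was also lower at P0 in LOH (log2 -0.56, SE 0.16, adjusted p = 0.0141) and stroma 2 (log2 -0.50, SE 0.13, adjusted p = 0.00970), where the levels were 84.7 and 88.96 in the P0 samples, 132 at P21 and 111 and 144 at P56. The other 9 clusters tested did not pass. The endothelial call was lost without P0 sample 1 (log2 -0.69, adjusted p = 0.0854) or P0 sample 2 (log2 -0.72, 0.0572). The LOH call was lost without P0 sample 1 (log2 -0.65, adjusted p = 0.0655), P0 sample 2 (log2 -0.46, 0.167) or P56 sample 2 (log2 -0.41, 0.0548). The stroma 2 call was lost without P0 sample 1 (log2 -0.48, adjusted p = 0.175) or P0 sample 2 (log2 -0.51, 0.141). Endothelial markers moved with it, since the summed level of Egfl7, Pecam1 and Kdr start sites was 80.4 and 83.2 CPM at P0 and 106 to 122 in adult endothelial nuclei (Egfl7 at P0 was as open in LOH and PC), as did the Slc12a3 and Slc12a1 signal given above, and their part in the result was not tested. Its start-site peak, at chr5:137348103-137350663, was open in 57.1% and 61.9% of endothelial nuclei in the P0 samples, 35.7% at P21 and 34.8% and 47.3% at P56, a larger raw share at P0. Thinned to 1000 open peaks, the shares were 8.12% and 10.98% in the P0 samples, 13.4% at P21 and 13.05% and 18.7% at P56, larger in all adult samples, as in the fit (log2 -0.78, SE 0.21, adjusted p = 0.00621). The start-site call was lost without P0 sample 1 (log2 -0.62, adjusted p = 0.320) or P0 sample 2 (log2 -0.85, 0.130). The intronic peak 2.3 kb into the gene, at chr5:137352215-137352507, was the most endothelial of its peaks among those open in at least 5% of some cluster. It was open in 10.8% and 8.98% of nuclei in the P0 samples, 6.33% at P21 and 5.90% and 7.19% at P56. The raw shares were larger at P0 and the fit, which scales for depth, was lower (log2 -0.74, SE 0.26, adjusted p = 0.0318). The call of this intronic peak was lost without P0 sample 1 (log2 -0.79, adjusted p = 0.319), P0 sample 2 (log2 -0.64, 0.368), P56 sample 2 (log2 -0.72, 0.0543) or with DESeq2 (log2 -0.75, 0.208). In endothelial cells 3 of 4 tested Ephb4 peaks were lower at P0, where 14.4% of all tested peaks were. The third of them, 27 kb into the gene, had log2 -0.77 (SE 0.21, adjusted p = 0.00688, edgeR). Its log2 was -0.74 without P0 sample 1 and -0.71 without P0 sample 2. All 3 calls were lost when either P0 sample was left out.

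Ephb6, the member whose kinase domain lacks activity, had the most calls. It was higher at P0 in 11 of the 12 clusters tested, of which NP, podocytes and DCT were filtered in through P0, and in 8 of the 9 others. Principal cells led at P0. In adult nuclei they and CNT, at 27.5 ± 6.34 and 26.7 ± 3.05 (SD, n = 3), did not differ beyond their spread. The principal cell levels were 65.3 and 62.6 in the P0 samples, 29.4 at P21 and 32.6 and 20.4 at P56. Both P0 samples were above every adult sample (log2 1.33, SE 0.22, adjusted p = 4.79e-04). In LOH the level was 48.1 and 39.9 in the P0 samples, 8.96 at P21 and 15.5 and 5.25 at P56 (log2 2.13, SE 0.32, adjusted p = 3.15e-04). Endothelial cells had 30.00 and 25.3 in the P0 samples, 9.52 at P21 and 6.84 and 0 at P56, the 0 coming from 0 open nuclei of 431 at the start-site peak, which allows a share of up to 0.696% (log2 2.45, SE 0.47, adjusted p = 0.00296). Nephron progenitors and stroma 1, whose adult samples had the marker shifts given above, were higher at P0 by 1.64 and 1.61 (log2). The smallest difference among those called was in CNT, 0.94. The exception was IC, where the stages overlapped (log2 0.38, SE 0.45, adjusted p = 0.763). The PCT call was lost without P0 sample 1 (log2 0.82, adjusted p = 0.322), P0 sample 2 (log2 1.21, 0.110), the P21 sample (log2 1.01, 0.0647) or P56 sample 2 (log2 0.81, 0.0538). The podocyte call was lost without P0 sample 1 (log2 1.40, adjusted p = 0.212), P0 sample 2 (log2 1.38, 0.238), the P21 sample (log2 1.09, 0.133) or P56 sample 2 (log2 1.13, 0.111). The DCT call was lost without P0 sample 1 (log2 1.47, adjusted p = 0.384), P0 sample 2 (log2 2.00, 0.179) or P56 sample 2 (log2 1.26, 0.109). The CNT call was lost without P0 sample 1 (log2 0.88, adjusted p = 0.143) or P0 sample 2 (log2 0.97, 0.0738). The PST call was lost without P0 sample 1 (log2 1.02, adjusted p = 0.189) or P0 sample 2 (log2 1.29, 0.123). DESeq2 called Ephb6 higher at P0 in 7 and lower in 0 clusters, and gave no call in podocytes (log2 1.44, adjusted p = 0.320), DCT (log2 1.77, 0.0644), CNT (log2 0.97, 0.107) and endothelial cells (log2 2.35, 0.286).

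Of the Ephb6 peaks, the start-site peak at chr6:41604529-41605851 was open in 14.2% of all nuclei and the intronic peak 1.1 kb into the gene in 0.998%. The first peak was open in 35.8% and 36.9% of principal cells in the P0 samples, 11.7% at P21 and 8.27% and 10.4% at P56 (log2 1.40, SE 0.22, adjusted p = 7.00e-05) and was called in 11 of 12 clusters, 4 of them filtered in through P0. Its calls in podocytes, PCT, PST and DCT were lost without either P0 sample, and that in CNT without P0 sample 1 (log2 1.04). The podocyte call was also lost without the P21 sample (log2 1.12), and the podocyte and DCT calls without P56 sample 2 (log2 1.14 and 1.40). DESeq2 gave no call at this peak in podocytes (log2 1.41, adjusted p = 0.154) and endothelial cells (log2 2.29, adjusted p = 0.300). With each nucleus thinned to 1000 open peaks, both P0 samples were above all adult samples at this peak in 11 of 13 clusters, for example 4.88% and 3.81% in the P0 samples, 0.856% at P21 and 1.44% and 0.376% at P56 in LOH. The start-site peak of Efnb3 did so in 11 of 13 clusters too, and stayed at 0 in immune nuclei of every sample. Over the 8 start sites, 56 of 104 pairs did not overlap between stages after thinning, against 38.3% over the start sites of all genes. The P0 samples were above in 39 of the 104, against 22.5%. For a single pair 2 against 3 samples allow no two-sided exact permutation p below 0.2. The 250 bases before the Ephb6 start in RefSeq (GRCm38.p6, plus strand, chr6:41605261-41605510) lie under this peak and are printed because the start site was called in the most clusters. They hold 1 match to GCCNNNGGC in capitals. Over the 300 bases from 250 before to 50 after the start, Ephb6 had a GC content of 76.3% with 34 CpG, Efnb2 72.3% with 35, and the other members with an entry 55.7% to 68.7%, against a median of 52.7% and 7 CpG over 32851 promoters. An AP-2 match was found in 16.6% of all promoters and, among the members, in those of Ephb2 and Ephb6.
Ephb6 promoter: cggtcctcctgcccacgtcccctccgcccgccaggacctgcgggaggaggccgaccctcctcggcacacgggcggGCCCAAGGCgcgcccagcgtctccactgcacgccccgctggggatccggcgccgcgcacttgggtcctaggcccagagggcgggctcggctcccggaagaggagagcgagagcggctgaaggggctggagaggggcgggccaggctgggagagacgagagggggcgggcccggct

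**Figure D5:**
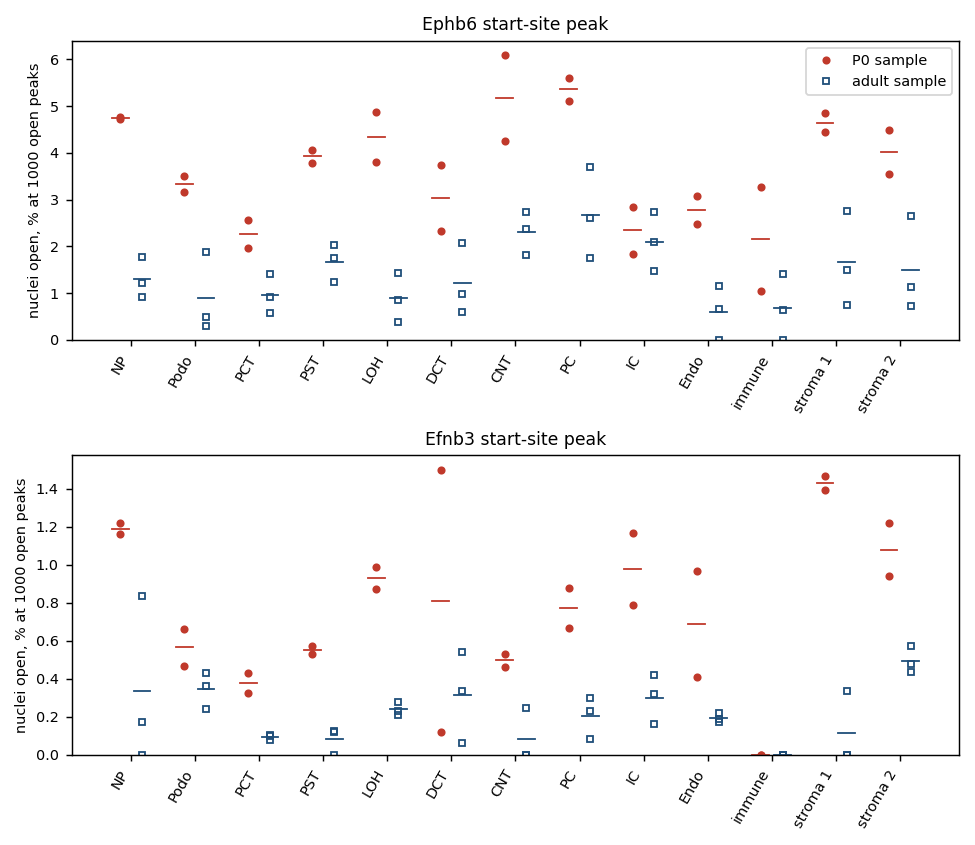
Percent of nuclei with the start-site peak of Ephb6 (upper) and Efnb3 (lower) open once every nucleus is thinned to 1000 open peaks, by cluster (x axis; y axis from 0). Circles are the 2 P0 samples, squares the 3 adult samples and lines the means. The P0 samples lie above the adult samples in 11 of 13 clusters for each gene, the exceptions being IC and immune cells for Ephb6 and DCT and immune cells for Efnb3.

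Whether a stage difference itself differs between clusters was tested with the sample as a block, by edgeR's quasi-likelihood test of the interaction. It passed for 6 of the 8 members, against 58.1% of all 27350 genes tested. Ephb2 (adjusted p = 2.17e-12) and Ephb1 (adjusted p = 2.72e-12) had the smallest p-values, followed by Ephb3, Efnb2, Ephb4 and Ephb6. The Ephb6 call was lost without P0 sample 1 (adjusted p = 0.160), without P0 sample 2 (adjusted p = 0.0798) and without the sample block (adjusted p = 0.161). Efnb1 (adjusted p = 0.160) and Efnb3 (adjusted p = 0.265) did not pass. Each cluster's stage difference was then set against the mean of the others. All 13 clusters entered, with the immune cells, where no member had passed the filter of the within-cluster test. Ephb4 averaged 3.59 CPM in immune cells at P0 and 29.0 in adult nuclei. The part of these low immune counts in the interaction and the contrasts was not tested. For Ephb2 the difference stood apart in LOH by -1.38 (SE 0.15, adjusted p = 8.80e-11), in PCT by 1.098 (SE 0.17, adjusted p = 1.01e-06) and in podocytes by 1.31 (SE 0.30, adjusted p = 0.00474). Ephb1 stood apart in nephron progenitors by 2.02 (SE 0.33, adjusted p = 5.02e-06) and in podocytes by -1.57 (SE 0.21, adjusted p = 3.48e-07). Within nephron progenitors the Ephb1 pair had been filtered in through P0. Adult progenitor samples also had the raised Slc12a3 signal given above, and its part in these contrasts was not tested. Ephb3 was set apart in DCT by -0.88 (SE 0.19, adjusted p = 0.00555) and Ephb4 in principal cells by 0.87 (SE 0.15, adjusted p = 9.70e-05). Efnb2 was set apart in NP by 1.15 (SE 0.25, adjusted p = 7.19e-04) and in LOH by 0.59 (SE 0.13, adjusted p = 4.08e-04). It was also set apart in PCT by -0.53 (SE 0.13, adjusted p = 0.00133) and in stroma 1 by -0.82 (SE 0.20, adjusted p = 0.00402). Of all genes, 27.2% had such a contrast in LOH, 22.3% in PCT, 11.4% in NP, 10.7% in endothelial cells, 6.15% in stroma 1, 4.27% in PC, 1.82% in podocytes and 0.713% in DCT. For Ephb6, which was higher at P0 nearly throughout, endothelial cells exceeded the mean of the others by 1.30 (SE 0.36, adjusted p = 0.0104).

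The A-class members of the family, 14 genes whose ephrins are tied to the membrane by a lipid anchor, had 61 of 139 tested pairs called (43.9%), 51 higher and 10 lower at P0, with a median log2 of 0.47. Over all genes 25.1% of tested pairs were called. Of the 115 A-class pairs that either stage carried over the filter, 40 were higher and 10 lower (43.5%). Such pairs were called in 22.3% over all genes, 10.8% higher and 11.4% lower, and in 42.2% for the B-class members. The excess at P0 was therefore not particular to the B-class. Epha3, a receptor of mesenchymal cells, was higher at P0 in 9 of 10 clusters tested, most in stroma 1 (log2 2.66, SE 0.29, adjusted p = 1.12e-06). Of these calls 1 was filtered in through P0. The adult stroma 1 samples had the marker shifts given above, and their part in the Epha3 result was not tested. Efna5, a ligand that also binds Ephb2, was higher at P0 in 7 clusters, with 1.42 in PST, and lower in LOH (log2 -0.47, SE 0.12, adjusted p = 0.00839). Epha10 was higher at P0 in the 6 clusters where it passed the filter, 4 of them through P0 alone, and Efna4 in 5 of 12 and lower in 1. Genes that act with B-class signalling in the cell, a list of 25, gave 50 pairs higher and 44 lower of 309 tested (30.4% called) with a median of -0.02, near the background of 25.1%. The exchange factor Tiam1 was higher at P0 in 8 clusters and lower in NP, Rgs3, which B-ephrins recruit through their PDZ-binding end, was higher in 8, and the kinase Fyn was higher in 7 and lower in 1. Stat3 was lower at P0 in 8 of 13 clusters, most in LOH (log2 -1.14, SE 0.14, adjusted p = 9.11e-05).

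By the correlation of log2 levels over the 26 combinations of cluster and stage, the gene most like Ephb2 was Cacnb3 (r = 0.93), followed by Efna5 (r = 0.91). Ephb3 was nearest to Lnx1 (r = 0.87), Ephb1 to Arhgef26 (r = 0.89), Ephb4 to Tspan9 (r = 0.90) and Ephb6 to Scn8a (r = 0.91). Efnb2 was nearest to Tspan15 (r = 0.81), Efnb3 to BC028777 (r = 0.86) and Efnb1 to Mir8120 (r = 0.76). Between members the highest values were 0.80 for Ephb2 and Ephb3 and 0.70 for Efnb2 and Ephb1. The 26 points share the same 5 libraries and their depth, so these values are descriptions.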

How the data were processed

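Nuclei of 5 snATAC-seq samples were analysed. Per the study's methods and the labels, the authors aligned reads to mm10 with Cell Ranger ATAC (1.1.0), kept barcodes by fragment number, promoter ratio and mitochondrial reads, used SnapATAC with Harmony correction for clustering, and called peaks with MACS2 on the pooled nuclei of each cell type. The deposited matrix holds counts that the authors reduced to 0 or 1 per nucleus and peak, so an open call carries no fragment number, and peaks were not called per sample. Cell type names come from the annotation that was deposited, and whether doublets were removed is not given in the sources used here. The members and lists were chosen with earlier results of these data known.

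Open calls were summed per sample, cluster and gene window or peak, for sums of at least 20 nuclei. Sums were tested with edgeR (4.0.16, R 4.3.3) by the quasi-likelihood test with TMM scaling, filterByExpr (minimum count 10, minimum total 15) and BH adjustment at 0.05 within a cluster. The scripts were tested on simulated data. DESeq2 (1.42.0) was an alternative, and tables were built with Python (3.11.15) and scipy (1.17.1). Correlations used log2 of CPM plus 1. Library totals were 16980853 to 43794155 open calls, and limits given for a count of 0 (3 counts) cover counting error only. Named peaks were the start-site peak of each member, the peak called in the most clusters, and the peak with the highest ratio of its first cluster to the mean of the others among those open in at least 5% of some cluster, and others are said to be chosen after their values were seen. Up to 4 genes of each pathway list, those called in the most clusters, are named. Alternatives covered the tool, scaling, filter, gene window, depth of nuclei, sample block and each sample left out. The bulk ATAC-seq and scRNA-seq samples were not used here.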

Additional observations from a re-analysis of the deposited data

Results flagged for a closer look

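The stage difference of 6 members was not the same in every cluster by the interaction test (edgeR, adjusted p). The values were 2.17e-12 for Ephb2, 2.72e-12 for Ephb1, 3.07e-09 for Ephb3, 6.94e-08 for Efnb2, 7.06e-08 for Ephb4 and 0.000541 for Ephb6. The same test passed for 58.1% of all genes.

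The nuclei outside the 13 clusters, which enter no comparison, also had open member windows. The deposited cluster NP_LOH had 423 open calls over the 8 members, or 601 CPM, where a count of 0 would allow 4.26 CPM. The cluster PT_out had 1540 open calls, or 506 CPM, where a count of 0 would allow 0.986 CPM.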

How the results depend on the processing

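The 41 member and cluster pairs called became 18 to 48 when each sample was left out in turn, with 17 to 37 higher and 1 to 11 lower at P0. The lowest came without P0 sample 2 and the next, 19, without P0 sample 1, in fits where the lone P0 sample is assumed to vary like the adult samples. Of the 112 peak and cluster pairs, 54 to 142 were called, with 36 to 91 higher and 18 to 53 lower. Restricting windows to the annotated starts gave 24 gene pairs, 19 higher and 5 lower, and nuclei of 2000 to 8000 open peaks gave 21 higher. DESeq2 called 29 gene pairs, all 29 shared, and 74 peak pairs, 26 of them lower. Of the calls at named peaks, 30 passed without the filter, 29 kept their direction without passing and 1 changed direction without passing. With DESeq2, 40 of these calls passed and 20 did not. Calls at named peaks were also lost without P0 sample 1 and without P0 sample 2. Without the filter 170 peak pairs were called, 134 higher, while 67 of the 112 were kept and 45 lost. The Efnb2 start-site peak in stroma 1 was the call that changed direction (log2 0.082, adjusted p = 0.811), and the cause was not tested. No gene pair called changed direction under any alternative run. Without the filter the median log2 of all genes moved to 0.27 in NP, 0.14 in stroma 1, 0.13 in LOH and 0.13 in podocytes, from -0.01, -0.02, 0.05 and -0.01. With the sample number as a replicate block, 39 gene pairs (38 shared) and 102 peak pairs were called. The labels do not say that the numbers link samples, only 2 pairs exist, and the median correlation of same-numbered deviations was 0.107 (0.0173 to 0.197 over the clusters). Without the block, the interaction passed for 5 members, and over its other alternatives for 5 to 7. Adult nephron progenitors and podocytes, with as few as 52 and 39 nuclei in a sample, limit the depth there. Of the 16 leading clusters by member and stage, 12 were kept with windows restricted to the annotated starts. There podocytes led for Efnb2, stroma 1 for Efnb3 and DCT for Ephb2 at P0, and stroma 1 for Efnb1 in adult nuclei. The other alternatives kept 14 to 16.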

Other observations

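Within the nuclei labelled NP_LOH, 218 in all, the window of Ephb2 had 298 CPM, Ephb4 95.2 and Ephb3 82.4, and Efnb3 had 0 calls. In the 446 nuclei labelled PT_out, Ephb2 had 189 and Ephb1 38.5 CPM. These levels pool all samples and are not scaled per kb of peak, so they give no order between genes.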
